A study of Sus scrofa with 9 samples.

Results

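The semaphorins, ephrins, slits and netrins with their receptors were examined in the tooth germ of the miniature pig across 3 developmental stages. The members were chosen by gene symbol alone, as every listed row whose symbol belongs to the SEMA, PLXN, NRP, EPHA, EPHB, EFNA, EFNB, SLIT, ROBO or NTN families, or is DCC or UNC5A to UNC5D. This gave 61 of 34580 rows, all of which match a RefSeq symbol. RefSeq also holds 8 genes of these families without a row here: EFNA3, EFNA4, EPHA10, NRP2, NTN1, PLXNB2, SEMA4B and SEMA6B. Rankings within a family cover only the listed rows. RNA of the mandibular deciduous molar germ that the study calls Dm3 was measured in untreated fetuses, 3 libraries each at E40, which the study takes as cap, E50 as early bell and E60 as late bell. The labels give the tissue and the stage of each library but neither the fetus, the sex nor the litter, so p-values measure only the spread between these libraries, which may be technical. The values are FPKM, fragment numbers relative to transcript length and library size, so that levels of different genes can be set side by side per length.

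These genes carry short-range and long-range positional signals between cells. Secreted class 3 semaphorins bind neuropilins and signal through plexins, while the transmembrane semaphorins bind plexins directly. Ephrins are tethered to the cell surface and act on Eph receptor tyrosine kinases of the neighbouring cell, slits act on ROBO receptors, and netrins act on DCC and the UNC5 receptors. All of these families were described as axon guidance systems, and they also act in blood vessels and epithelia. In the tooth, SEMA3A made by the dental mesenchyme is known for keeping trigeminal axons out of the early germ.

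The libraries fell into 2 sets by depth. The reads behind each FPKM value were recovered from the size of its steps, and totalled between 938527 and 1323530 at E40 and between 14362235 and 16674750 at E50. E60 replicate 1 had 16124836 reads, replicate 2 had 1380822 and replicate 3 had 1760356. The E50 libraries and E60 replicate 1 are called the deep set here, and the E40 libraries and E60 replicates 2 and 3 the shallow set. E40 and E50 lie wholly in different sets, so stage and set cannot be told apart between them. The summed FPKM of the 61 members was 409 to 554 at E40, 1030 to 1080 at E50, and 960, 254 and 449 in E60 replicates 1, 2 and 3, which places E60 replicate 1 beside E50 and the other E60 libraries beside or below E40. The numbers of members called from the deposited values in comparisons with E60 are therefore given with and without that replicate. For single genes both values are given in part. A tested member had a median of 17 reads at E40 (0 to 419), 407.5 in the deep set (3 to 16747) and 17 in E60 replicates 2 and 3 (0 to 361).

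The germ expressed most of these genes. Of the 61 members, 60 were above 0 in at least 1 library, and 55 reached 1 FPKM in 2 or more libraries and were tested. EPHA8, NTN5, PLXNA2, ROBO3, SEMA7A and SLIT1 were not, and SEMA7A was listed at 0 in every library. The highest members were receptors. EPHA4 ranked first at E40 and E50, with 57.6 ± 11.8 FPKM at E40 (SD, n = 3) and 138 ± 2.36 FPKM at E50 (SD, n = 3). EPHA7, ROBO1, PLXNC1 and SEMA3A followed at E40, and ROBO1, EPHA3, EPHA7 and UNC5C at E50. SEMA3A had the highest mean of the ligands at both, with 21.0 ± 1.73 FPKM at E40 (SD, n = 3) and 45.5 ± 6.01 FPKM at E50 (SD, n = 3). The ligand EFNB2 overlapped it at both, at 10.6 to 22.6 FPKM at E40 and 36.4 to 39.2 FPKM at E50. At E40 the level of SEMA3A overlapped those of its neighbours PLXNC1 (21.4 to 27.8 FPKM) and EPHB4 (16.5 to 21.2 FPKM).

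**Figure D1:**
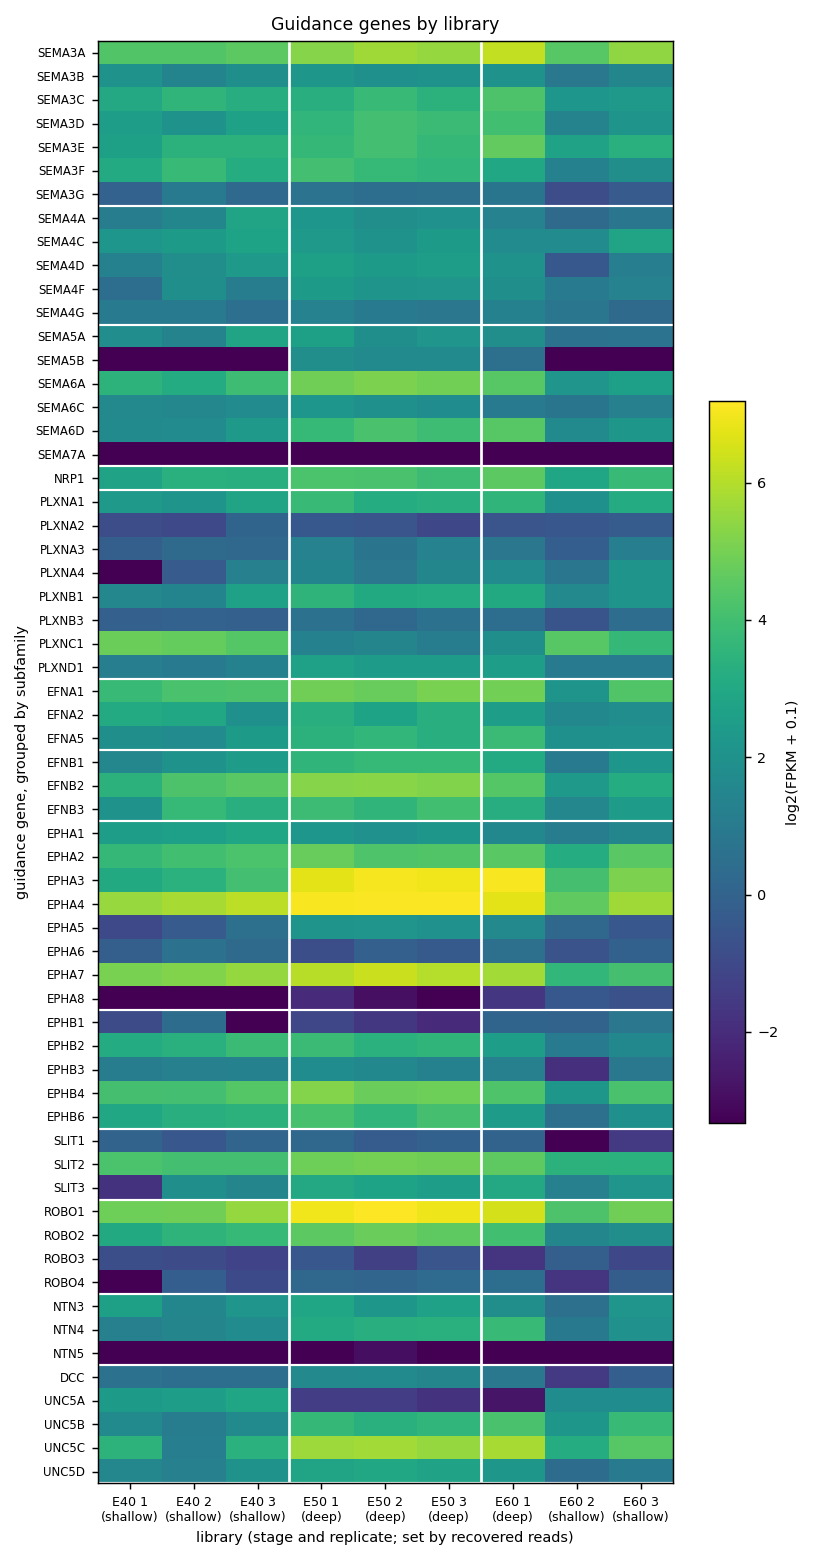
Level of the 61 guidance genes in each of the 9 libraries as log2(FPKM + 0.1), with genes in rows grouped by subfamily and libraries in columns grouped by stage and marked with their set. EPHA4, EPHA7 and ROBO1 are bright in every column, and PLXNC1 and UNC5A are brighter in the shallow than in the deep libraries.

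From cap to early bell, 5 guidance receptors (EPHA3, EPHA5, UNC5B, UNC5C and ROBO1) were called higher and PLXNC1 and UNC5A lower, and the share of members called higher was close to that of all rows. In the fit of all 9 libraries, limma with Benjamini-Hochberg adjustment called 8 of 55 members higher at E50 (EPHA3, EPHA5, UNC5B, UNC5C, ROBO1, SEMA5B, SEMA6D and EFNB1) and 2 lower (PLXNC1 and UNC5A), a call being an adjusted p under 0.05 with a log2 fold change of at least 1. Of all 19618 rows tested, 16.8% were called higher and 21.8% lower, or 38.6% in either direction, against 14.5% and 3.64% of the members. The median log2 fold change was 0.87 over the members and 0.55 over all rows, and after scaling each library by its median ratio to all libraries it was 0.21 and -0.09. Scaling left 7 members called higher and 3 lower (12.2% and 24.9% of all rows), and without E60 replicate 1, which changes only the estimate of the spread, 20 were called higher and 2 lower (30.5% and 24.2% of all rows). The number called fell to 0 when E40 replicate 1, E50 replicate 2 or E50 replicate 3 was left out, and to 3 without E40 replicate 2 or E50 replicate 1. With the set of libraries as a covariate, where only E60 links the sets, no member and 0.255% of all rows were called by limma, and 4 members had an unadjusted p under 0.05. The log2 fold changes of SEMA6D, ROBO1 and UNC5A then turned to -0.48, -0.02 and 0.38. The difference between sets that this fit removes rests on 1 deep E60 library, E60 replicate 1, so it is poorly known. Limma-voom on the recovered reads called 4 members higher and 4 lower (5.23% and 21.6% of all rows). Without regard to the test, 37 members were higher in every E50 than in every E40 library and 3 lower, against 45.2% and 27.8% of all rows. In tissue RNA, fewer cells of a type and less RNA per cell cannot be told apart. The summed FPKM of the skeletal muscle markers was 74.9 to 116 at E40 and 9.68 to 12.3 at E50, and 5 of the 6 tested were called lower. The part of muscle in these results was not tested.

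**Figure D2:**
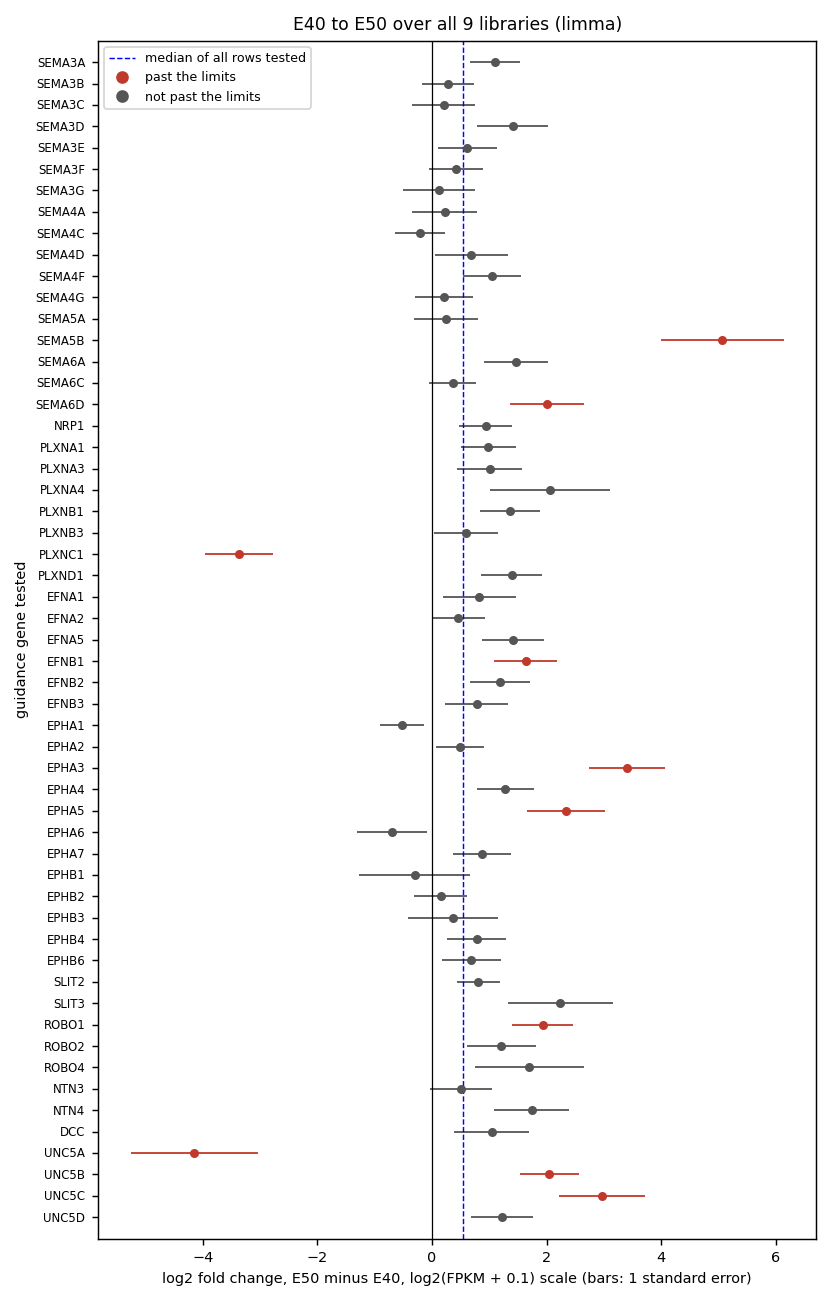
Log2 fold change from E40 to E50 of the 55 members tested, on the log2(FPKM + 0.1) scale, with bars of 1 standard error from limma over all 9 libraries. Red points are the 10 members past the limits, and the dashed line at 0.55 is the median of all rows tested.

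From early to late bell, no member was called over all 9 libraries by limma with Benjamini-Hochberg adjustment, although 21 of 55 had an unadjusted p under 0.05. Of all rows, 0.0714% were called. Limma-voom called 1 member lower, with 0.326% of all rows. Without E60 replicate 1, 32 members were called lower and 2 higher (PLXNC1 and UNC5A) at E60, with 39.1% and 20.0% of all rows, and the median log2 fold change was -1.48 over the members and -0.94 over all rows. After median-ratio scaling of the same 8 libraries, 15 members were called lower and 3 higher, against 12.8% and 25.4% of all rows. Without E60 replicate 1, E50 and E60 lie in different sets and cannot be told apart from them.

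From cap to late bell, no member was called over all 9 libraries, where 1.8% of all rows were called and 8 members had an unadjusted p under 0.05 in limma. Without E60 replicate 1, EPHB2, EPHB6, SEMA3F, ROBO2, EPHA7 and EPHA1 were called lower at E60 and none higher, with 4.68% and 1.37% of all rows. Median-ratio scaling of all 9 libraries called EPHA3, SEMA3A and UNC5B higher and EPHB2 and EPHB6 lower, against 2.05% and 1.62% of all rows. Scaling of the 8 libraries without E60 replicate 1 called 2 higher and 4 lower (2.51% and 2.39% of all rows). Limma-voom over all 9 libraries called 4 higher and 5 lower (2.43% and 16.8%). The set as covariate called 6 lower (4.48%), but its log2 fold changes are by construction those without E60 replicate 1. It is therefore not a separate result. Muscle markers summed to 5.7, 9.47 and 10 FPKM in E60 replicates 1, 2 and 3, below every E40 library.

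Among the secreted semaphorins, SEMA3A had the highest FPKM at each stage. Its pooled reads at E40 were 60, against 33, 73, 98, 106, 95 and 21 for SEMA3B, SEMA3C, SEMA3D, SEMA3E, SEMA3F and SEMA3G. FPKM is relative to transcript length, so its order differs from that of the reads. SEMA3A was at 20, 20.1 and 23 FPKM at E40, at 39.1, 51.0 and 46.4 FPKM at E50, and at 74.2, 22.1 and 42.7 FPKM in E60 replicates 1, 2 and 3. All E50 libraries were above all E40 libraries, and E60 overlapped both. From E40 to E50 the log2 fold change was 1.10 (SE 0.43, adjusted p = 0.0678, limma) over all 9 libraries and passed without E60 replicate 1 (SE 0.27, adjusted p = 0.00774). Median-ratio scaling brought it to 0.44 (adjusted p = 0.0925) over all 9 libraries and to 0.46 (adjusted p = 0.0511) without E60 replicate 1, so that it was not called. From E40 to E60 it was 0.97 (SE 0.43, adjusted p = 0.28), and 1.08 (SE 0.19, adjusted p = 0.0193) after median-ratio scaling, which without E60 replicate 1 gave 0.98 (adjusted p = 0.0251), under the fold limit.

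SEMA3F, which signals mainly through NRP2, a gene without a row here, moved apart from SEMA3A at E60. Its FPKM was 8.49, 13.8 and 9.03 at E40, 16.3, 12.9 and 12.1 at E50, and 7.62, 2.36 and 3.5 at E60. Every E60 library was below every library of the other stages. The change from E40 to E60 was -1.33 (SE 0.47, adjusted p = 0.215) over all 9 libraries and -1.79 (SE 0.32, adjusted p = 0.0185) without E60 replicate 1. From E50 to E60 it was -1.75 (SE 0.47, adjusted p = 0.164, limma) over all 9 libraries. Without E60 replicate 1, where stage and set cannot be told apart, it was -2.21 (SE 0.32, adjusted p = 0.00055, limma). From E40 to E50 it was 0.42 (SE 0.47, adjusted p = 0.475), which turned to -0.24 under median-ratio scaling. SEMA3E, a ligand that binds PLXND1 without a neuropilin, had 12.5 to 16.4 FPKM at E50 and 25.1 in E60 replicate 1, while E60 replicates 2 and 3 lay within the 6.25 to 10.6 FPKM of E40. SEMA3C behaved differently in the deep and shallow sets, with 19.1 FPKM in E60 replicate 1 against 9.5 to 13.5 at E50, and 4.46 and 4.99 in E60 replicates 2 and 3 against 7.96 to 11.7 at E40. SEMA3B, SEMA3D and SEMA3G were not called from E40 to E50 over all 9 libraries, with log2 fold changes of 0.28, 1.41 and 0.13.

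Of the transmembrane semaphorins, SEMA6D and SEMA5B were called from E40 to E50, SEMA5B without a read at E40. SEMA6D, a ligand of PLXNA1, was at 3.15, 3.28 and 4.84 FPKM at E40 and at 13.1, 17.6 and 15.1 FPKM at E50. Its log2 fold change was 2.01 (SE 0.65, adjusted p = 0.039). At E60 it was at 21.6, 3.1 and 4.58 FPKM in replicates 1, 2 and 3. E60 replicate 1 was above every E50 library, replicate 2 below every E40 library and replicate 3 within their range. SEMA5B was listed at 0 in all E40 libraries and had 7, 7 and 6 reads at E50, 3 in E60 replicate 1 and 0 in E60 replicates 2 and 3. A single read of this row was worth 5.62 to 7.93 FPKM at E40, above the 3.11 to 3.55 FPKM measured at E50, so a difference between these stages was not detectable at the E40 depth. Its log2 fold change of 5.07 depends on the pseudocount, and limma-voom on the recovered reads gave -0.62 (adjusted p = 0.525).

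SEMA6A had the highest mean of the transmembrane semaphorins over the 9 libraries, at 11.0, 8.67 and 15.2 FPKM at E40, 30.1, 34.4 and 30.4 FPKM at E50, and 21.6, 4.36 and 5.95 FPKM at E60. E60 replicate 1 was below every E50 library, and E60 replicates 2 and 3 were below every E40 library. From E40 to E50 the log2 fold change was 1.47 (SE 0.56, adjusted p = 0.063) over all 9 libraries and was called without E60 replicate 1 (adjusted p = 0.00147). After median-ratio scaling it was 0.81 (adjusted p = 0.0836) and 0.83 (adjusted p = 0.0101) in the same order, under the fold limit. SEMA4C, the class 4 member with the highest mean over the 9 libraries, was at 4.47 to 6.72 FPKM at E40, 3.95 to 5.14 at E50 and 3.23, 3.22 and 7.02 at E60, and its stages overlapped. At E50 SEMA4D was higher, at 5.18 to 6.25 FPKM. None of the 5 class 4 members was called over all 9 libraries in any comparison.

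Among the receptors of the semaphorins, PLXNC1, the plexin that binds SEMA7A, was called lower from E40 to E50, where stage and set cannot be told apart. It was at 27.8, 26.2 and 21.4 FPKM at E40 and at 2.34, 2.62 and 2.07 FPKM at E50, with a log2 fold change of -3.37 (SE 0.59, adjusted p = 0.0123). In E60 replicates 1, 2 and 3 it was at 3.69, 21.8 and 12.7 FPKM, so E60 replicate 1 lay near E50 and the others near E40. Within the sets, E60 replicate 1 was above every E50 library and E60 replicates 2 and 3 overlapped E40. Its ligand SEMA7A was listed at 0 throughout. NRP1, the coreceptor for SEMA3A, was at 6.61, 10.1 and 9.62 FPKM at E40, 18.3, 17.6 and 14.4 FPKM at E50, and 23.3, 7.09 and 13.4 FPKM at E60. Its change from E40 to E50 was 0.94 (SE 0.46, adjusted p = 0.12) over all 9 libraries.

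PLXNA4, the plexin through which SEMA3A acts on sensory axons, rested on 0, 1 and 4 reads at E40, 51, 38 and 53 at E50, and 71, 3 and 10 at E60. Its FPKM was 0, 0.709 and 2.25 at E40, 2.59, 1.7 and 2.75 at E50, and 3.28, 1.62 and 4.23 at E60, and the stages overlapped. The pooled reads gave an E50 to E40 ratio of 2.06, with an exact 95% counting interval of 0.862 to 6.44, so a change was not detectable at this depth. PLXNA1, PLXNB1 and PLXND1, at 5.36, 3.89 and 2.12 FPKM on average at E40 and 10.6, 9.46 and 5.74 at E50, had no overlap between these stages but were not called over all 9 libraries (adjusted p = 0.124, 0.0614 and 0.0609, limma).

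**Figure D3:**
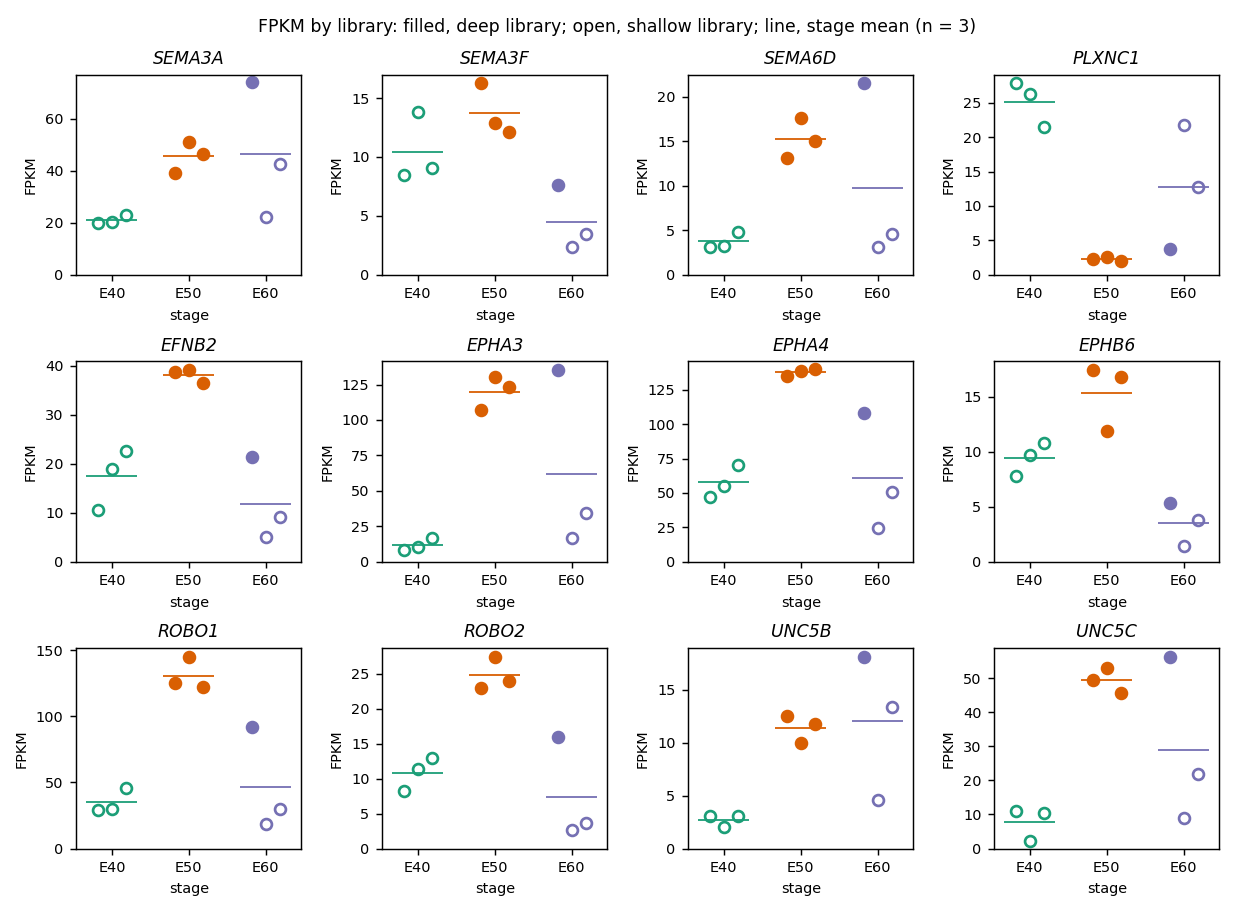
FPKM of 12 guidance genes in each library by stage, with filled circles for deep and open circles for shallow libraries and a line at the stage mean (n = 3). EPHA3, ROBO1 and UNC5C are higher in every E50 than in every E40 library, and in SEMA3F and EPHB6 all E60 libraries lie below both other stages.

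EPHA3, a receptor of the A-type ephrins, showed the largest rise of the members with enough reads in both stages. It was at 8.26, 10.4 and 16.5 FPKM at E40 and at 107, 130 and 123 FPKM at E50. The log2 fold change was 3.40 (SE 0.66, adjusted p = 0.0124), and 2.74 (SE 0.40, adjusted p = 0.013) after median-ratio scaling. The pooled reads gave a ratio of 9.86, with an exact 95% counting interval of 8.01 to 12.3. At E60 it was at 135, 16.8 and 34.5 FPKM in replicates 1, 2 and 3. Each E60 library was above all libraries of the other stage in its set, E60 replicate 1 by a pooled ratio of 1.12 (interval 1.08 to 1.15) and E60 replicates 2 and 3 by 2.18 (interval 1.68 to 2.84). These intervals cover counting error only. From E40 to E60 its log2 fold change was 1.92 (SE 0.66, adjusted p = 0.208) as deposited and 2.03 (SE 0.40, adjusted p = 0.0321) scaled. Without E60 replicate 1 it was 1.09 (SE 0.38, adjusted p = 0.125, limma) and 1.53 (SE 0.23, adjusted p = 0.00971) in the same order.

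EPHA4, which binds ephrins of both types, was at 47.3, 55.2 and 70.5 FPKM at E40, 135, 139 and 140 FPKM at E50, and 108, 24.5 and 50.7 FPKM at E60. Its E50 libraries were above all others. From E40 to E50 the log2 fold change was 1.28 (SE 0.50, adjusted p = 0.066) over all 9 libraries. EPHA7 was at 33.1, 36.7 and 45.3 FPKM at E40, 66.0, 79.8 and 64.6 FPKM at E50, and 53.3, 12.2 and 16.8 FPKM at E60. It was called lower from E40 to E60 without E60 replicate 1 (log2 fold change -1.40, SE 0.25, adjusted p = 0.019) and was not called over all 9 libraries (-0.77, adjusted p = 0.428) or after scaling without E60 replicate 1 (-0.97, adjusted p = 0.0217). EPHA1 was at 5.75, 5.94 and 7.08 FPKM at E40, 4.49, 3.83 and 4.64 FPKM at E50, and 2.89, 2.06 and 2.74 FPKM at E60. Its stages did not overlap in any of the 3 comparisons, and its change from E40 to E60 passed without E60 replicate 1 (-1.35, SE 0.29, adjusted p = 0.0335) but not with it (-1.26, SE 0.38, adjusted p = 0.156), nor after scaling without it (-0.94, adjusted p = 0.0802). EPHA5 was called higher from E40 to E50 with a log2 fold change of 2.34 (SE 0.68, adjusted p = 0.0279), on 1, 2 and 5 reads at E40 against 152 to 198 at E50. Its pooled ratio was 4.68, with a counting interval of 2.36 to 10.9. EPHA2, prominent in epithelia, was at 12.8 to 18.3 FPKM at E40, 19.5 to 26.5 at E50 and 22.2, 9.02 and 22.2 at E60, and was not called.

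The B-type Eph receptors were not called from E40 to E50, and EPHB2 and EPHB6 were the lowest at E60 relative to both other stages. EPHB6, a member without kinase activity, was at 7.78, 9.67 and 10.8 FPKM at E40, 17.4, 11.9 and 16.8 FPKM at E50, and 5.35, 1.38 and 3.79 FPKM at E60. EPHB2 was at 8.64, 10 and 14.1 FPKM at E40, 14, 10.4 and 11.6 FPKM at E50, and 5.81, 1.96 and 2.9 FPKM at E60. In both genes every E60 library was below every E40 and E50 library. From E40 to E60 the log2 fold change of EPHB6 was -1.58 (SE 0.51, adjusted p = 0.177) over all 9 libraries, -1.97 (SE 0.42, adjusted p = 0.0326) without E60 replicate 1, and -1.48 (SE 0.27, adjusted p = 0.0229) over all 9 libraries after scaling. That of EPHB2 was -1.70 (SE 0.46, adjusted p = 0.118), -2.12 (SE 0.32, adjusted p = 0.01) and -1.59 (SE 0.23, adjusted p = 0.01) in the same order. EPHB4, the receptor that marks venous endothelium, was at 16.8, 16.5 and 21.2 FPKM at E40, 37.3, 27.4 and 29.2 FPKM at E50, and 19.2, 4.63 and 17.8 FPKM at E60. EPHB1 rested on at most 3 reads in each E40 library.

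Of the ephrins, EFNB1 was called higher from E40 to E50, where stage and set cannot be told apart. It was at 2.78, 4.14 and 5.26 FPKM at E40, on 3, 5 and 8 reads, and at 11.5, 12.9 and 13.0 FPKM at E50. The log2 fold change was 1.64 (SE 0.55, adjusted p = 0.0424), and after scaling 0.98, under the fold limit. The pooled ratio was 2.97, with a counting interval of 1.81 to 5.23. EFNB2, the ligand of EPHB4 and a mark of arterial endothelium, had the highest mean of the ephrins at E40 and E50, but overlapped EFNA1 at E40. EFNB2 was at 10.6, 19.0 and 22.6 FPKM at E40, 38.7, 39.2 and 36.4 FPKM at E50, and 21.4, 5.06 and 9.07 FPKM at E60. All E50 libraries were above all others. Its change from E50 to E60 was -1.92 (SE 0.53, adjusted p = 0.164) over all 9 libraries and -2.47 (SE 0.37, adjusted p = 0.00067) without E60 replicate 1. EFNA1, the highest A-type ephrin, was at 13.9, 18 and 18.7 FPKM at E40, 30.2, 26.3 and 33.1 FPKM at E50, and 30.7, 4.25 and 20.0 FPKM at E60, and was not called from E40 to E50 (0.83, SE 0.64, adjusted p = 0.3). EFNA5 had only 2, 2 and 4 reads at E40 and 82 to 118 at E50, and its pooled ratio was 2.63 (counting interval 1.32 to 6.15).

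ROBO1 was the only member of the slit system called from E40 to E50 over all 9 libraries. It was at 29.2, 29.6 and 45.6 FPKM at E40, 125, 145 and 122 FPKM at E50, and 91.5, 18.7 and 29.6 FPKM at E60. The log2 fold change was 1.93 (SE 0.54, adjusted p = 0.0242), and 1.27 (SE 0.28, adjusted p = 0.0208) after scaling. ROBO2 was lower, at 8.21, 11.4 and 12.9 FPKM at E40, 23, 27.4 and 24 FPKM at E50, and 15.9, 2.71 and 3.59 FPKM at E60. From E40 to E60 it was called lower without E60 replicate 1 (-1.74, SE 0.28, adjusted p = 0.0128), and the value over all 9 libraries was -0.97 (SE 0.60, adjusted p = 0.403). SLIT2 was the main slit ligand, at 18.2, 16.6 and 16.4 FPKM at E40, 28.9, 31.4 and 29.5 FPKM at E50, and 23.5, 10.8 and 10.3 FPKM at E60. Its change from E40 to E50 was 0.81 (SE 0.37, adjusted p = 0.107). SLIT3 was at 0.188, 3.69 and 2.66 FPKM at E40, where replicate 1 had 1 read, and at 5.84 to 7.92 FPKM at E50. ROBO4, an endothelial receptor, had 0, 3 and 2 reads at E40 and 56, 60 and 62 at E50, with a pooled ratio of 2.58 and a counting interval of 1.09 to 8.05. The endothelial markers summed to 41.4 to 64.4 FPKM at E40 and 88.5 to 105 at E50. In E60 replicates 1, 2 and 3 they summed to 106, 37.1 and 72.8 FPKM. Within this list the genes differed. Mean FPKM from E40 to E50 rose for PECAM1 (8.85 to 27.5), KDR (9.95 to 21.6), TEK (0.873 to 3.42) and CLDN5. It fell for TIE1 (3.65 to 0.813), while ERG (3.74 to 3.85) and EGFL7 (16.3 to 15.2) overlapped between these stages. The part of endothelium in ROBO4, EPHB4 and EFNB2 was not tested.

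The netrin receptors UNC5B and UNC5C were called higher from E40 to E50, and UNC5A was called lower over all 9 libraries. UNC5B, which also acts in endothelium, was at 3.06, 2.05 and 3.03 FPKM at E40, 12.5, 9.94 and 11.8 FPKM at E50, and 18.1, 4.57 and 13.4 FPKM at E60. Its E40 to E50 log2 fold change was 2.05 (SE 0.52, adjusted p = 0.0185). All E60 libraries were above all E40 libraries, with a log2 fold change of 1.92 (SE 0.52, adjusted p = 0.12) as deposited and 2.03 (SE 0.31, adjusted p = 0.011) scaled. Without E60 replicate 1 it was 1.52 as deposited and was not called. Within the sets, the pooled ratio was 1.60 (counting interval 1.51 to 1.69) for E60 replicate 1 over E50 and 3.48 (interval 2.62 to 4.69) for E60 replicates 2 and 3 over E40. UNC5C, the highest of these receptors by the mean of each stage, was at 10.9, 2.16 and 10.3 FPKM at E40, on 9, 2 and 12 reads, at 49.5, 53.0 and 45.8 FPKM at E50, and at 56.1, 9.03 and 21.9 FPKM at E60. Its E40 to E50 log2 fold change was 2.96 (SE 0.75, adjusted p = 0.0183), and its pooled ratio was 6.31 (counting interval 4.19 to 9.98).

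UNC5A was at 5.19, 5.67 and 7.36 FPKM at E40, 0.277, 0.276 and 0.188 FPKM at E50, and 0.0504, 3.33 and 3.38 FPKM in E60 replicates 1, 2 and 3. It was high in all 5 shallow libraries and low in all 4 deep ones. Between E40 and E50 the log2 fold change was -4.15 (SE 1.11, adjusted p = 0.0214), and with the set of libraries as covariate it turned to 0.38 (adjusted p = 0.95). In each set E60 was below the other stage. The attractive receptor DCC was at 1.3 to 1.46 FPKM at E40, 2.62 to 3.12 at E50, and 1.72, 0.248 and 0.779 at E60, and between E40 and E50 its log2 fold change was 1.04 (SE 0.66, adjusted p = 0.213). NTN4, a netrin of basement membranes, had the highest mean of the netrins over the 9 libraries, at 2.3, 2.64 and 3.26 FPKM at E40, 8.44, 9.43 and 10 FPKM at E50, and 13.4, 1.79 and 3.86 FPKM at E60. Its change from E40 to E50 was 1.74 (SE 0.65, adjusted p = 0.0593) over all 9 libraries and was called without E60 replicate 1 (SE 0.33, adjusted p = 0.00213). NTN3 was higher than NTN4 at E40, at 6.12, 2.73 and 4.34 FPKM, and lower at E50, at 4.62 to 7.29 FPKM.

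E60 was also compared with the other stage sequenced to like depth, E60 replicate 1 with E50 and E60 replicates 2 and 3 with E40. Of the 55 members, 18 were below every library of the other stage in both sets, against 12.4% of all rows, and 2, EPHA3 and UNC5B, were above in both, against 3.29% of all rows. The lower members were EPHB2, EPHB3, EPHB6, EPHA1, EPHA7, SEMA3F, SEMA4A, SEMA4D, SEMA5A, SEMA6A, SEMA6C, DCC, SLIT2, EFNA2, EFNB2, UNC5A, UNC5D and ROBO2. After median-ratio scaling, 13 were below (6.16% of all rows) and 10 above (8.88%), the latter being EPHA3, EPHB1, SEMA3A, SEMA6D, NRP1, PLXNA4, SLIT3, NTN4, UNC5B and UNC5C. EPHB1 and PLXNA4 among them rested on at most 4 reads in any E40 library. Some of the lower members also rested on few reads. In E60 replicates 2 and 3, DCC had 1 and 4 reads, EFNA2 4 and 6, and SEMA5A 3 and 4. The counting intervals of these replicates over E40 include 1 for DCC (0.113 to 1.21) and EFNA2 (0.211 to 1.11). EPHB3 had 1 read in E60 replicate 2, and UNC5A 3 reads in E60 replicate 1. SEMA3C and SEMA3G were above E50 in the deep set and below E40 in the shallow set under both scales, as were 4.29% of all rows as deposited and 2.47% scaled. Across the 55 members the Pearson r between the 2 differences was 0.629, and across all 19618 rows 0.283. This is a description across genes, which are not independent replicates, and the 2 differences share no library.

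**Figure D4:**
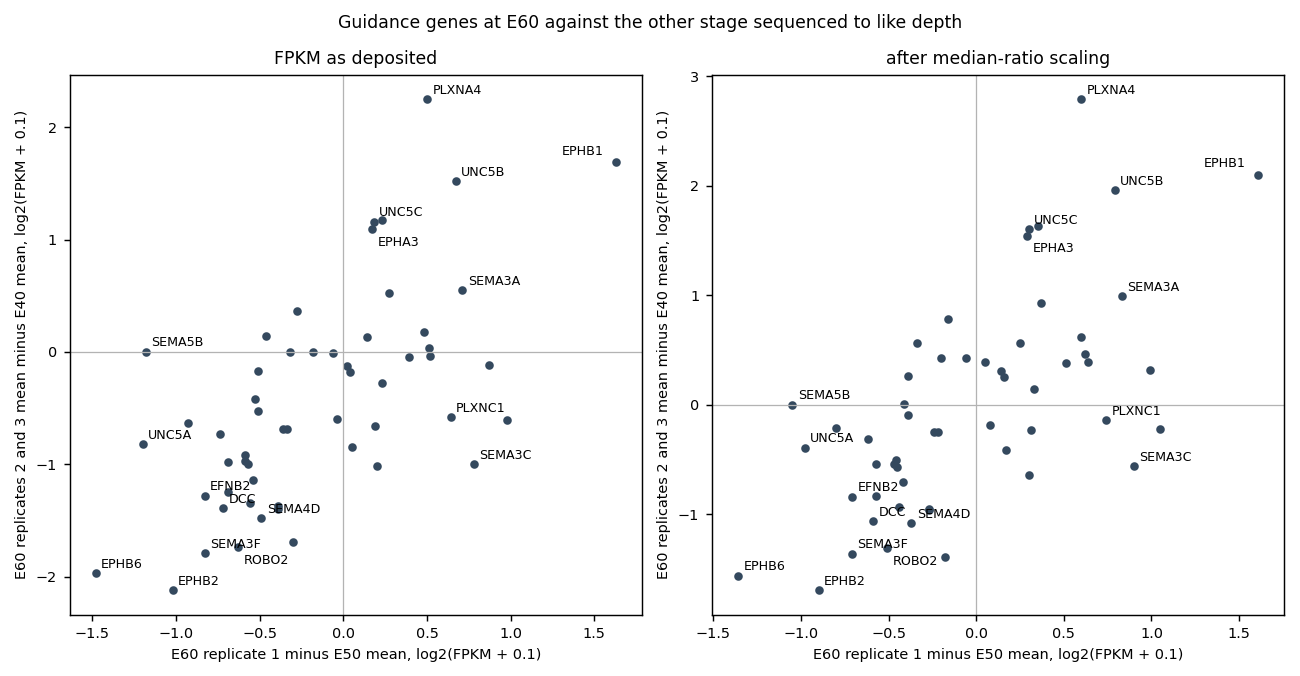
Difference of E60 replicate 1 from the E50 mean (horizontal) against the difference of E60 replicates 2 and 3 from the E40 mean (vertical), both on the log2(FPKM + 0.1) scale, for the 55 members tested, as deposited (left) and after median-ratio scaling (right). EPHB2, EPHB6, SEMA3F and ROBO2 lie low on both axes, UNC5B lies high on both, and SEMA3C lies to the right and below 0.

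The test within each set gave fewer calls. Among the deep libraries, where E60 has 1 library that is assumed to vary like the E50 libraries, limma called EPHB2 (log2 fold change -1.02, adjusted p = 0.00266), EPHB6 (-1.48, adjusted p = 8.74e-06) and SEMA5B (-1.18, adjusted p = 0.00766) lower, and none higher, of 52 members tested, against 2.88% and 2.86% of all rows. SEMA5B had 3 reads in E60 replicate 1, and its counting interval of 0.0809 to 1.43 for the ratio to E50 includes 1. Among the shallow libraries none of 52 members was called between E40 and E60 by limma, against 1.3% of all rows, and 12 had an unadjusted p under 0.05. EPHB2 was at -2.12 there (SE 0.41, adjusted p = 0.0652).

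A ratio of 2 genes within a library does not depend on how libraries are scaled to each other. For 7 ratios chosen after the values were seen, no test was made. EPHA3 to EPHA4 was 0.175, 0.189 and 0.235 at E40, 0.793, 0.935 and 0.883 at E50, and 1.25, 0.688 and 0.679 at E60, so the E40 libraries were below all others in either set. SEMA3F to SEMA3A was 0.425, 0.686 and 0.392 at E40, 0.418, 0.254 and 0.261 at E50, and 0.103, 0.107 and 0.0821 at E60, the deep and shallow E60 libraries lying close together and below the rest. ROBO2 to ROBO1 was 0.281 to 0.385 at E40, 0.184 to 0.197 at E50 and 0.121 to 0.174 at E60. EPHB2 to EPHB4 was 0.515 to 0.663 at E40, 0.375 to 0.396 at E50 and 0.163 to 0.423 at E60, where it overlapped E50. In the other 3 ratios E60 overlapped an earlier stage. UNC5B to UNC5C was 0.281 to 0.949 at E40, 0.188 to 0.257 at E50 and 0.323 to 0.61 at E60, EPHA7 to EPHA4 was 0.643 to 0.7, 0.463 to 0.573 and 0.331 to 0.498, and EFNB2 to EFNA1 was 0.765 to 1.21, 1.1 to 1.49 and 0.454 to 1.19.

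**Figure D5:**
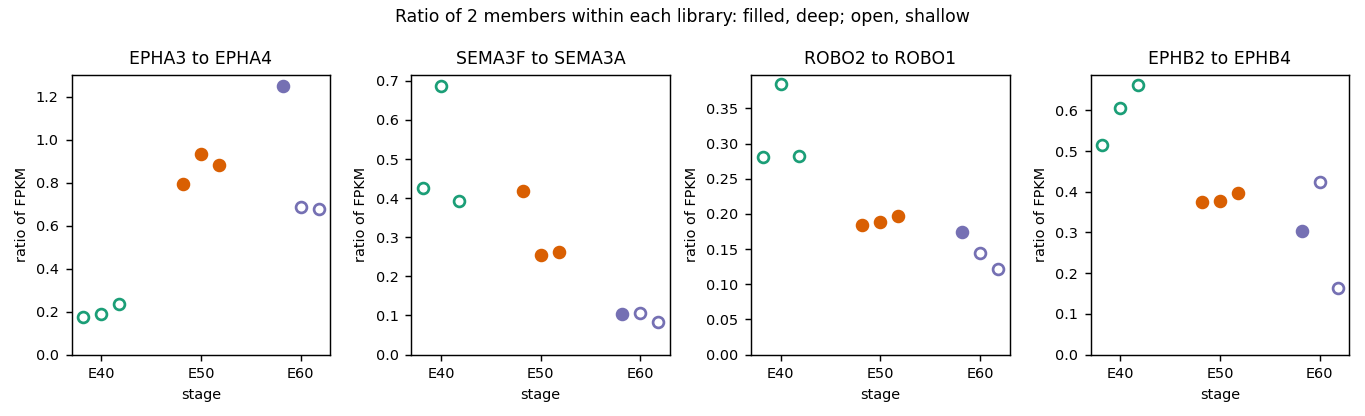
Ratio of the FPKM of 2 members within each library by stage, with filled circles for deep and open circles for shallow libraries. EPHA3 to EPHA4 is lowest in the 3 E40 libraries, and SEMA3F to SEMA3A is lowest in the 3 E60 libraries, at 0.0821 to 0.107.

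The share of the summed FPKM of all members held by each of the 13 subfamilies gives the same independence of scaling. Class 3 semaphorins held 11.4 to 14.1% at E40, 9.15 to 10.6% at E50, and 15.4, 15.8 and 15.4% in the E60 libraries. DCC with the UNC5 receptors held 2.93 to 5.71% at E40, 6.52 to 6.91% at E50 and 7.25 to 9.21% at E60, and NRP1 held 1.62 to 2.19%, 1.41 to 1.75% and 2.43 to 3.0%. These 3 shares were higher in every E60 library than in every other library. The share of the B-type ephrins was lower in every E60 library, at 3.85 to 4.25% against 4.30 to 7.85% at E40 and 5.88 to 6.34% at E50. The other 9 shares overlapped between E60 and an earlier stage. EPHA receptors held the largest share in every library, from 26.3 to 34.9%.

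Genes that act downstream of or beside these receptors were followed as fixed lists. Of 33 tested intracellular effectors, 11 were called higher from E40 to E50 and 1 lower over all 9 libraries, and the median log2 fold change was 0.94, against 16.8% and 21.8% of all rows and a median of 0.55. With the set of libraries as covariate, none of the genes in this list and the next 2 was called by limma, against 0.255% of all rows. Among those called over all 9 libraries were the small GTPases RHOA (2.0, adjusted p = 0.0195, limma) and CDC42 (1.89, adjusted p = 0.0484), and the collapsin response mediator DPYSL2 (1.67, adjusted p = 0.0392). MICAL1, an oxidoreductase that acts below plexins, was called lower (-1.09, adjusted p = 0.0427). RAC1, a GTPase that all cells use, and SRGAP3 were listed at 0 in every library, so a value of 0 in this table is not taken as absence of expression. Of 11 other guidance cues and coreceptors tested, CXCR4 (1.56, adjusted p = 0.0229), CNTN1 (1.88, adjusted p = 0.0343) and CNTN2 (3.99, adjusted p = 0.0123) were called higher, and none lower. CNTN2 had no read at E40, where 1 read was worth 0.409 to 0.577 FPKM, and 55, 47 and 28 reads at E50 (1.06 to 2.03 FPKM). Its fold change depends on the pseudocount, and the counting interval of the pooled ratio starts at 2.52. DRAXIN, a ligand of DCC, was at 1.46 to 1.74 FPKM at E40, 6.09 to 8.66 at E50, and 1.72, 0 and 0.874 at E60, and the value for E40 to E50 was 2.12 (adjusted p = 0.0991). Of 8 neurotrophic factors and receptors tested, RET (2.63, adjusted p = 0.0124), BDNF (2.12, adjusted p = 0.0334) and GFRA1 (1.53, adjusted p = 0.0459) were called higher and NRTN lower (-2.61, adjusted p = 0.0408). Median-ratio scaling called 9 effectors higher and 3 lower, CNTN1, CNTN2 and RET higher and NRTN lower (12.2% and 24.9% of all rows). Limma-voom called 6 effectors higher and 2 lower, RET higher, and RGMA and NRTN lower (5.23% and 21.6% of all rows). CXCR4, BDNF and GFRA1 were called in neither. From E50 to E60 none of the 3 lists had a member called over all 9 libraries by limma, and without E60 replicate 1 they had 17, 9 and 5 called lower and none higher, with 39.1% and 20.0% of all rows and a median over all rows of -0.94.

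Markers of the cells a germ can hold were checked in the same table. Enamel organ and mesenchyme markers were present in every library, with KRT5 at 858 to 3660 FPKM and VIM at 560 to 2750 FPKM, while CDH1 was listed at 0 throughout. The enamel matrix gene AMBN was at 2.77 to 6.48 FPKM at E40 and E50 and at 10400, 2180 and 5370 FPKM in E60 replicates 1, 2 and 3. Neuron markers were low, their sum lying between 6.94 and 16.9 FPKM in all libraries, and Schwann cell markers summed to 1.26 to 2.98 FPKM, with MBP listed at 0 in each. Red blood cell markers, with HBB by far the highest, summed to 225 to 387 FPKM at E40, 728 to 1030 at E50, and 674, 93.7 and 344 in E60 replicates 1, 2 and 3. Osteoclast and bone markers summed to 23.3 to 33.4, 59.9 to 71.5, and 95.1, 21.2 and 36.1 FPKM, and leukocyte markers to 1.74 to 2.19, 4.5 to 7.22, and 7.52, 2.29 and 1.93 FPKM. These 3 sums were higher in every E50 than in every E40 library, as were 37 members (45.2% of all rows), and their part in the results was not tested. Within the bone and leukocyte lists the genes differed. Mean FPKM from E40 to E50 rose for CTSK (8.01 to 49.6), ACP5 (0 to 5.51), AIF1 (1.18 to 5.2) and PTPRC (0.0942 to 0.399). It fell for IBSP (9.67 to 7.56), BGLAP (9.59 to 2.88) and CSF1R (0.672 to 0.261). ACP5 had no read at E40, where 1 read was worth 2.11 to 2.97 FPKM, and the counting interval of its pooled ratio starts at 1.73. PTPRC and CSF1R were too low to be tested, and at E40 PTPRC was above 0 only in replicate 2 (0.282 FPKM).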

How the data were processed

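Total RNA of Dm3 germs was rRNA-depleted and sequenced as directional paired-end libraries. The authors aligned the reads with TopHat (build Sscrofa 10.2 per the submitters' processing notes) and deposited 1 table of FPKM per row and library. A scaling between libraries is not given in the sources used here. Samples were grouped by the stage in their labels.

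FPKM values of a gene rose in steps of 1 read, and whole reads were recovered for 28963 of 28963 rows above 0 (tolerance 0.0001 reads). Total reads times the worth of 1 read agreed across libraries within 0.068%, and on simulated data 93.2% of 3889 rows were exact. The depth sets were split at 5000000 reads. Counting intervals are exact (95%) and cover counting error only.

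Rows that reached 1 FPKM in 2 or more libraries entered limma 3.58.1 (R 4.3.3, mean-variance trend) as log2(FPKM + 0.1), with 1 coefficient per stage, Benjamini-Hochberg adjustment over all rows, and limits of adjusted p under 0.05 and log2 fold change of at least 1. Fold changes are on this scale, which shrinks those of low genes, although a library at 0 can carry them above the ratio of the pooled reads. On simulated data for E40 to E50 (19168 rows, 200 changed 4-fold), 137 changed and 32 unchanged rows were called. The simulation gave all rows the same dispersion and held no difference between the sets, so it does not measure the error of the calls here. Other steps ran in Python 3.11.15 with pandas 2.3.3, numpy 2.4.6, matplotlib 3.10.9 and scipy 1.17.1.

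The members and lists were chosen with earlier results of these data known. Named were the members called in each comparison (at most 10 per direction, and where fewer than 5 were called also at most 6 per direction called without E60 replicate 1), the highest member of each subfamily, and SEMA3A, SEMA3F, NRP1, PLXNA4 and ROBO4. Genes outside this rule were chosen after their values were seen. Alternatives were other pseudocounts, filters and scalings, limma-voom on recovered reads, a fit without trend, a replicate block, the set as covariate, only the stages or the set compared, and leaving out each library. Sequences and positions were not used here.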

Additional observations from a re-analysis of the deposited data

How the results depend on the processing

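The numbers of members called changed with the libraries used and with the model. From E40 to E50, leaving out each library in turn gave 0 to 22 called against 10 over all 9 libraries, from E50 to E60 it gave 0 to 34 against 0, and from E40 to E60 0 to 6 against 0. Fitting only the compared stages gave 24 called from E40 to E50. The deep libraries alone gave 3 from E50 to E60. The set of libraries as covariate gave 0 from E40 to E50 and 6 from E40 to E60. The latter has by construction the log2 fold changes of the fit without E60 replicate 1. Median-ratio scaling gave 5 from E40 to E60, and together with leaving out E60 replicate 1, a combination chosen after seeing the data, 18 from E50 to E60 and 6 from E40 to E60. Limma-voom on the recovered reads gave 1 from E50 to E60 and 9 from E40 to E60, and from E40 to E50 it called 4 members higher and 4 lower, against 8 and 2. The cause of these changes was not tested. Replicate numbers did not pair the samples, the correlation of deviations of same-numbered libraries lying between -0.515 and 0.109, and a replicate block called 7 members from E40 to E50, 5 higher and 2 lower, and 0 in the other comparisons.

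Of the named genes, 18 values from E40 to E50, 29 from E50 to E60 and 17 from E40 to E60 changed direction, and 354, 360 and 414 kept direction and side of the limits. From E40 to E50, 66 lost their call, and 18, 27 and 26 gained one. With the set as covariate, log2 fold changes from E40 to E50 were -0.48 for SEMA6D, -0.02 for ROBO1, 0.38 for UNC5A, -0.17 for SEMA3A, 0.34 for SEMA4C, -0.59 for SEMA6A, -0.30 for NRP1, -0.33 for EPHA4, -0.29 for EPHB4, -0.89 for EFNA1, -0.45 for EFNB2, -0.34 for SLIT2, -0.56 for NTN4 and -0.95 for SEMA3F. From E50 to E60 they were -1.20 for UNC5A, 0.71 for SEMA3A, 0.48 for NRP1, 0.05 for EFNA1, 0.52 for NTN4, 0.18 for UNC5C and 0.27 for ROBO4. For the last 6 of these the deep libraries alone gave the same values by construction. Both fits take E60 replicate 1 minus the E50 mean, so they are not separate results. From E40 to E60, ROBO1 was at -0.53 and NTN4 at -0.04 with the set as covariate and in the shallow libraries alone. These values are also equal by construction, as both fits take E60 replicates 2 and 3 minus the E40 mean. Limma-voom gave -0.62 for SEMA5B and -0.23 for SEMA3F from E40 to E50, -0.76 for UNC5A, 0.71 for SEMA3A, 0.23 for SEMA4C, 0.47 for NRP1, 0.18 for NTN4 and 0.36 for ROBO4 from E50 to E60, and 0.03 for EPHA4 and 0.10 for EFNA1 from E40 to E60. Median-ratio scaling gave -0.24 for SEMA3F from E40 to E50, and 0.64 for SEMA3A, 0.61 for SEMA4C and 0.42 for NRP1 from E50 to E60. Without E60 replicate 1 it gave -0.22 for SEMA3F, then 0.52 for SEMA3A, 1.09 for SEMA4C and 0.30 for NRP1, and from E40 to E60 0.25 for SEMA4C and -0.10 for ROBO1. In the scaled shallow libraries these were 0.30 and -0.05. Leaving out each library in turn as deposited, the values from E50 to E60 ran from -0.56 to 0.32 for SEMA3A, from -0.51 to 0.04 for SEMA4C and from -0.76 to 0.09 for NRP1, and those from E40 to E60 from -1.14 to 0.01 for SEMA6A, -0.69 to 0.38 for EPHA4, -0.98 to 0.03 for EPHB4, -0.85 to 0.56 for EFNA1, -0.53 to 0.61 for ROBO1 and -0.04 to 1.38 for NTN4.

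At the shallow depth 14 of 55 tested members had 3 reads or fewer in at least 1 library, so that their fold changes rest on few reads.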
